A study of Drosophila melanogaster with 4 samples.

Results

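The H1 regions of the X chromosome described here are the stretches of sequence that the authors listed as enriched for histone H1 and that lie on the X with an end below position 21000000 of Release 5 of the Drosophila melanogaster genome. Of the 3779 regions listed for replicate 1, 333 met this rule, or 8.81%. Replicate 2 held 358 such regions of 4665, or 7.67%, and a combined table of the series held 2325 of 18812, or 12.4%. The limit keeps 21 Mb of the X from the telomere end and leaves out the 1.42 Mb nearest the centromere.

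The series measured H1 by ChIP-seq, the sequencing of DNA recovered by immunoprecipitation of chromatin, in 3rd instar larvae of the Oregon-R strain, wild type in genotype, with 2 H1 ChIP samples and 2 input samples numbered as replicates 1 and 2. The immunoprecipitates are described here from their lists of regions, and the input libraries were not analysed here. The labels name no dissected tissue, and they do not give the sex of the larvae. The labels do not say whether the replicates came from separate collections of animals, and their spread may be technical only. The read depth behind each list is unknown from the files. The score of a region is the authors' own value, whose scale the files do not state, and its levels were compared only within a list.

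H1 is the linker histone. It binds where DNA enters and leaves the nucleosome and is known for compacting chromatin fibres. In Drosophila the X is the chromosome on which dosage compensation acts: in males a complex of proteins and noncoding RNA, called MSL, binds the X and acetylates histone H4 at a lysine of its tail, and the genes of the single X are transcribed at a raised level. Acetylation of that lysine is known to hinder the folding of the chromatin fibre.

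Called H1 regions were farther apart on the X than on the autosomal arms 2L, 3L and 3R in both replicates, and they were somewhat shorter and carried higher scores. These arms served as reference, each without the 1.42 Mb next to its centromere, which leaves 21.6, 23.1 and 26.5 Mb. The X held 15.9 regions per Mb in replicate 1 and 17.0 in replicate 2. The lowest values among the reference arms were those of 3L, 29.3 and 34.3 per Mb, and the highest those of 3R, 43.0 and 48.8. The X thus lay below every reference arm in both replicates, by more than the replicates differed. Relative to the 3 arms pooled its density was 0.431 ± 0.0180 (SD, n = 2).

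By length of sequence the same order held. Regions covered 2.49% of the X stretch in replicate 1 and 2.80% in replicate 2, against 5.64% and 6.70% of 2L, 4.89% and 5.90% of 3L, and 7.41% and 8.68% of 3R. The covered share of the X relative to the pooled arms was 0.401 ± 0.0146 (SD, n = 2). In the combined table the X was covered to 19.4%, and the reference arms to between 30.3% and 38.1%, a ratio of 0.569. No test was made between the X and the arms, since regions are not replicates and the X and the arms are paired within a list, where an exact permutation test that changes the signs of 2 paired differences gives a two-sided p of at least 0.5. The density ratio moved with the choice of regions, to 0.789 when the lower-scoring part of each list, below its median, was left out and to 0.264 for regions of at least 2000 bp. The ratio of covered shares moved likewise, to 0.678 and 0.245.

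**Figure D1:**
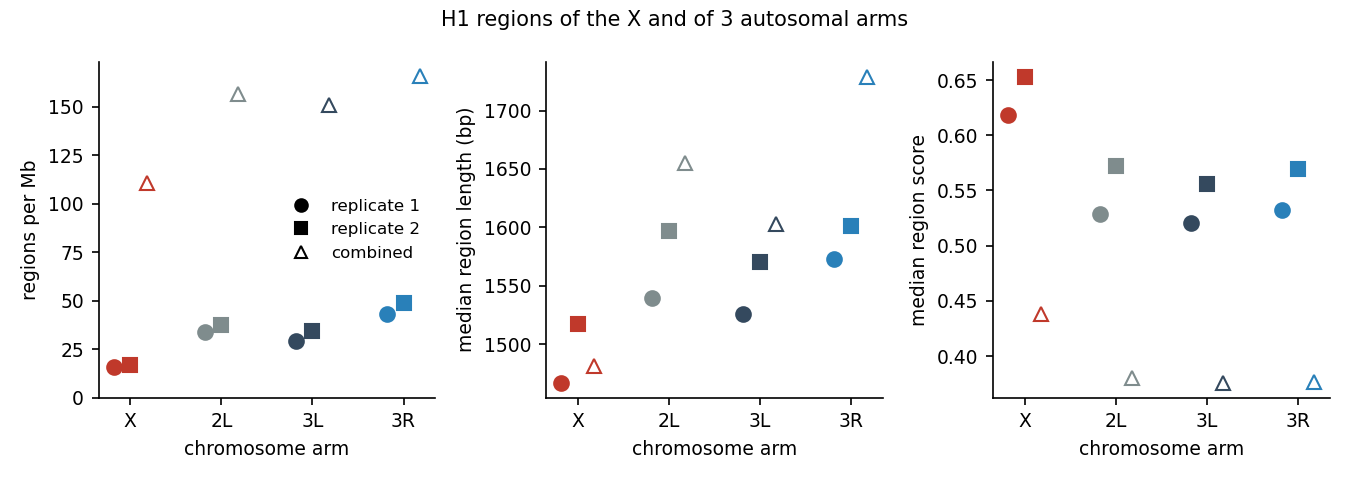
Regions per Mb (left), median region length in bp (middle) and median region score (right) of the X and of the reference arms 2L, 3L and 3R, with 1 point for each list: filled circles for replicate 1, filled squares for replicate 2, open triangles for the combined table. In every list the X is lowest in density, with 15.9 and 17.0 regions per Mb in the replicates, lowest in length and highest in score; the length and score axes do not start at 0.

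The gaps between neighbouring regions were long on the X. The median gap was 27.0 kb in replicate 1 and 19.8 kb in replicate 2, whereas on the reference arms it ran from 8.47 kb on 3R to 13.5 kb on 3L in replicate 1, and from 6.26 to 9.28 kb in replicate 2. The X median was 2.64 ± 0.0273 times that of the pooled arms (SD, n = 2), and 1.67 times in the combined table, where it was 2.24 kb. Without the regions that scored below their list's median it was 1.45 times, and with regions of at least 2000 bp alone 5.90 times. Gaps of 20 kb or more made up 56.9% of the X gaps in replicate 1 and 49.6% in replicate 2, and together they took up 90.8% and 89.3% of the stretch. On the pooled reference arms such gaps took up 77.4% and 73.4%. In the combined table gaps of at least 20 kb took up 47.1% of the X and 25.3% of the reference arms.

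Set against the mean gap of its own arm, the spacing of the X was close to that of the autosomes. In replicate 1 the quartiles of the X gaps were 0.139, 0.445 and 1.28 times the mean gap of the X, and those of the reference arms, each scaled by its own mean, were 0.143, 0.414 and 1.16. In replicate 2 they were 0.117, 0.351 and 1.16 on the X and 0.12, 0.340 and 0.969 on the reference arms. The shares of gaps above 3 times the mean were likewise close, 8.13% and 8.68% on the X and 8.62% and 8.42% on the arms. The mean gap of the X was 2.33 and 2.51 times that of the pooled arms, and the mixture of short and long gaps around the mean was much alike.

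**Figure D2:**
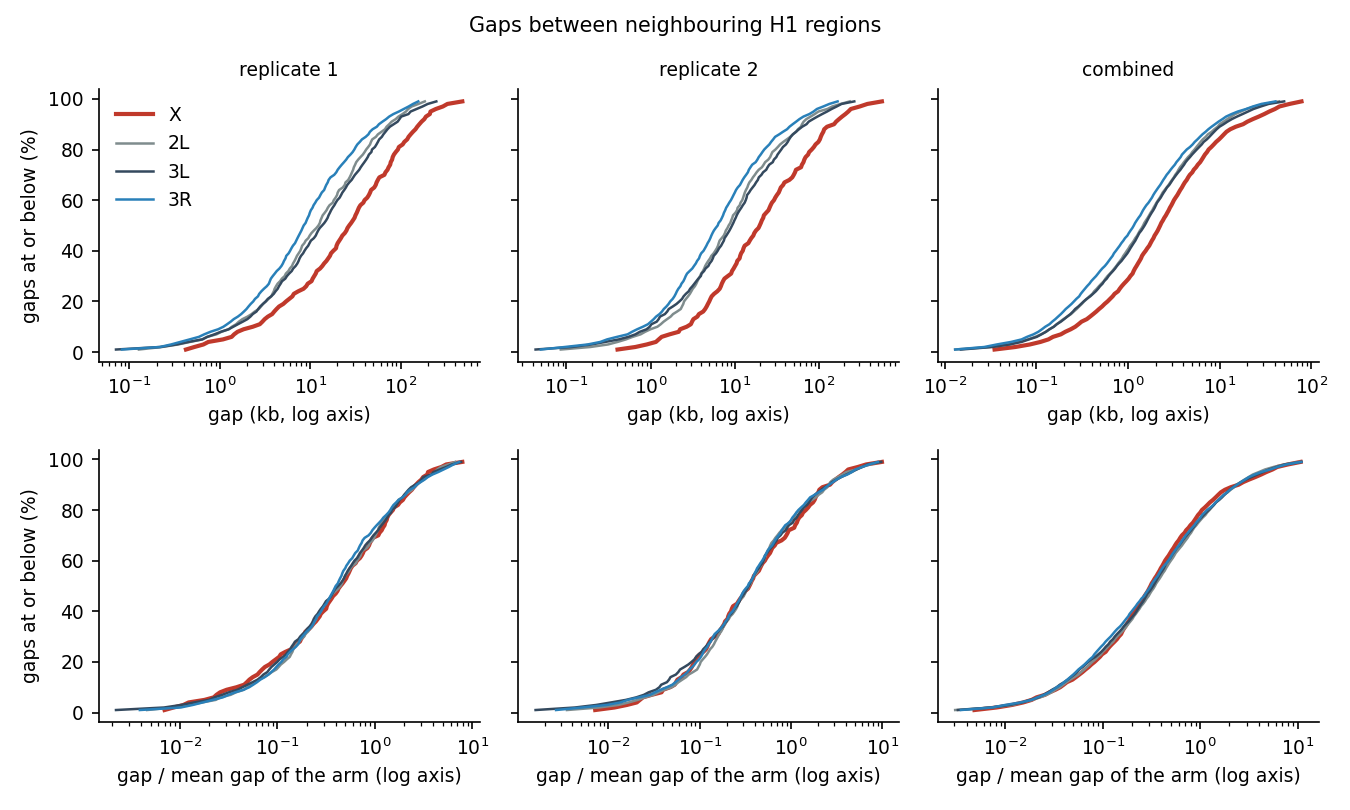
Cumulative share of gaps (vertical axis, %) at or below a given size (horizontal log axis), for the X (thick red line) and the arms 2L, 3L and 3R, in replicate 1, replicate 2 and the combined table. In kb (upper row) the X curve lies to the right of the others, with medians of 27.0, 19.8 and 2.24 kb; divided by the mean gap of each arm (lower row) the 4 curves nearly coincide.

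Clusters of close regions, defined by fixed distances, were few and small on the X in the replicates. Such distances are not scaled for the lower density of the X, which by itself makes close neighbours rarer. Only 4.82% of neighbouring X regions in replicate 1 and 3.64% in replicate 2 lay less than 1 kb apart, against 8.5% and 10.8% on the pooled arms. Joined at distances below 5 kb, the X cluster with the most regions held 5 in replicate 1 and 6 in replicate 2, and no X cluster spanned more than 19.3 and 27.0 kb. On 2L, 3L and 3R the clusters with the most regions held 9, 7 and 9 in replicate 1, and 7, 9 and 16 in replicate 2. Regions with no neighbour within 20 kb made up 33.6% of the X regions in replicate 1 and 26.3% in replicate 2, compared with 14.4% and 10.5% on the reference arms. These isolated X regions had median lengths of 1422 and 1446 bp and median scores of 0.61 and 0.64, beside 1486 and 1555 bp and scores of 0.61 and 0.66 for the X regions with a neighbour under 5 kb away. The isolated regions were thus slightly shorter, with scores close to those of the others.

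The combined table showed larger groups. When its regions less than 1 kb apart were joined, the 2325 X regions fell into 1657 groups, of which 437 held at least 2 regions and 21 at least 5. The group with the most regions, tied at 9 with the next, lay at chrX:18098362-18124736. It measured 26375 bp, 81.0% of it covered by combined regions, 21.6% by replicate 1 and 0 by replicate 2. The next, at chrX:847052-873194, spanned 26143 bp, with 9 regions that covered 86.3% of it, and both replicates reached it, with 31.3% and 28.7%. Another, at chrX:20202766-20220152, held 8 regions in 17387 bp and was covered to 10.6% and 34.5% by replicates 1 and 2. On 3R the largest such group held 21 regions and on 2L and 3L 14 and 12.

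Regions were spread unevenly over windows of 100 kb on every arm. The variance of the number of regions per window was 1.96 and 2.31 times its mean on the X in replicates 1 and 2, a mean of 2.14 ± 0.250 (SD, n = 2), against 2.13 to 2.50 and 2.91 to 3.69 on the reference arms. The ratio can rise with density, so the excess of the variance over the mean was also divided by the squared mean. On that measure the X stood above all 3 arms, with 0.604 in replicate 1 against 0.334 to 0.397, and 0.770 in replicate 2 against 0.549 to 0.619. The combined table gave 0.299 on the X and 0.0912 to 0.153 on the arms, and there the X was also the highest in the variance-to-mean ratio, with 4.31 against 2.52 to 3.31. That measure fell with larger windows, and windows of equal size held fewer regions on the X. In windows of 200 kb, with 3.17 and 3.41 regions on average, the X gave 0.320 and 0.512. Windows of 100 kb on 2L and 3L held 2.93 to 3.78 on average. They gave 0.334 and 0.397 in replicate 1, and 0.619 and 0.555 in replicate 2. The SD of the gaps over their mean was lowest on the X in both replicates. It was 1.45 against 1.47 to 1.57, and 1.74 against 1.83 to 2.03. In the combined table it was 2.19, against 2.10 to 2.21. The place of the X among the arms thus depended on the measure.

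Much of the X held no called region in either replicate. Of its 210 windows of 100 kb, 68 were empty in replicate 1, 73 in replicate 2 and 38 in both, which is 18.1% of the windows. The corresponding shares were 6.05% on 2L, 9.09% on 3L and 4.17% on 3R. Both replicates had a region in 107 of the X windows, or 51.0%, and in 72.3% to 83.3% of those of the reference arms. The 6 windows of the X that were empty in all 3 lists began at 9000001, 11400001, 15600001, 15700001, 18800001 and 19500001. The reference arms together had 2 such windows. A window of fixed size is not scaled for the lower density of the X, which by itself makes empty windows commoner.

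The longest stretch free of regions in both replicates was chrX:15556648-16081109, with 524 kb. The combined table listed 22 regions lying wholly inside it, which covered 5.56% of it with a median length of 1172 bp. The next stretches were chrX:13473228-13973804 with 501 kb, chrX:11376981-11821513 with 445 kb, chrX:12996341-13312639 with 316 kb and chrX:1992606-2292558 with 300.0 kb. Combined regions wholly inside covered between 4.25% and 6.10% of these. The longest on a reference arm measured 283 kb, on 3L, and 42.7% of the X lay in stretches of at least 100 kb free of both replicates, against 15.2% to 22.2% of the arms. These lengths are not scaled for density either. Divided by the mean gap of its own arm, the longest gap of a single replicate was 9.10 and 12.8 on the X. On the arms, which had more gaps, it was 11.2 to 14.3 and 15.2 to 38.5.

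In the combined table itself the longest gaps of the X were shorter. After the longest, of 226 kb from 15581641, came gaps of 159 kb at chrX:11385515-11545009, 158 kb at chrX:1712471-1870809, 147 kb at chrX:8954271-9101011 and 146 kb at chrX:13601927-13748039. None of the 5 held a region of either replicate. The X had 13 gaps of 100 kb or more in this table, and the 3 reference arms together had 9. These counts are not scaled for density.

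Along the X, the windows of 1 Mb with the most H1 coverage by replicate mean were the first and the last of the stretch. Counted from the telomere end, window 21 was covered to 4.56%, window 1 to 4.03% and window 19, nearly level with it, to 4.01%. Window 14 was covered to 0.798% and window 17 to 1.45%. Coverage did not fall evenly from the ends, since window 20 was covered to 1.67%. Window 1 was below several inner windows in replicate 1, with 3.13%, and in the combined table, with 21.4%. Single lists varied more: replicate 1 ran from 0.984% in window 14 to 5.61% in window 2, with a median of 2.23%. Replicate 2 ran from 0.611% in window 14 to 5.89% in window 21, with a median of 2.36%. Window 14, from 13000001 to 14000000, was the lowest in every list, with 9.46% in the combined table, where the highest windows were 19 with 28.5% and 21 with 28.4%. Windows 5 to 8, from 4000001 to 8000000, were covered to between 2.63% and 3.49% in replicate 1 and between 3.75% and 4.30% in replicate 2, all above the median of their list.

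**Figure D3:**
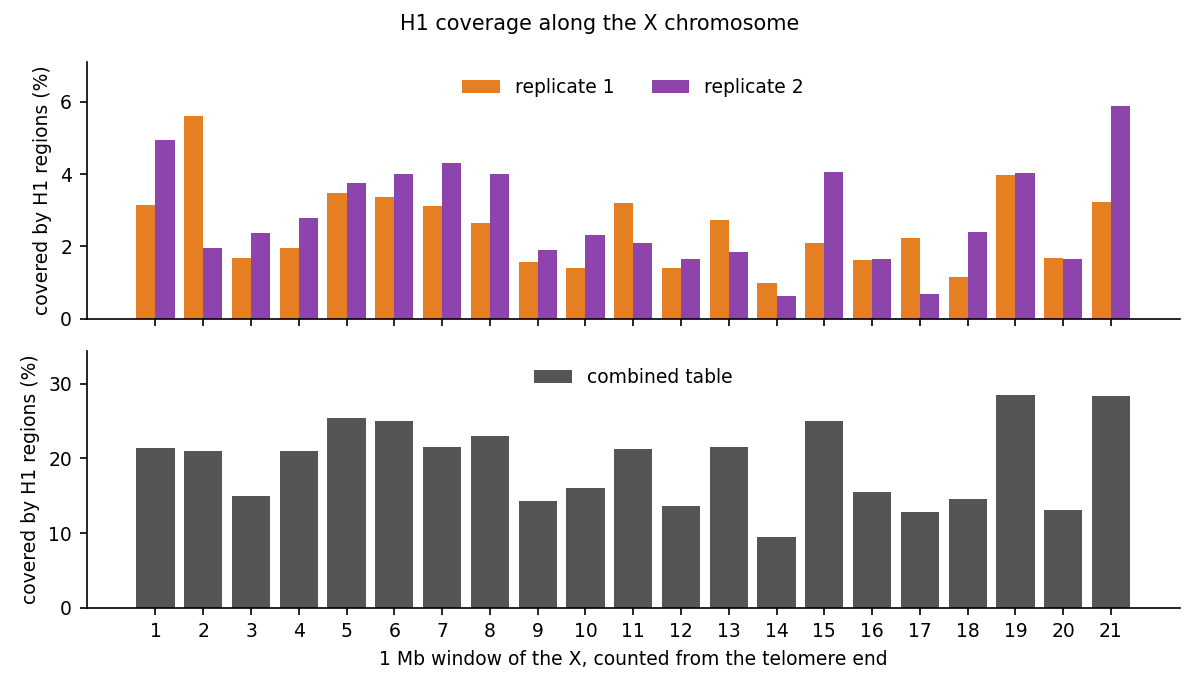
Share of each 1 Mb window of the X covered by H1 regions (vertical axis, %), by window counted from the telomere end, in replicates 1 and 2 (upper panel, paired bars) and in the combined table (lower panel). Window 14 is the lowest in every list, and window 2 shows the replicates apart, with 5.61% in replicate 1 and 1.96% in replicate 2.

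The replicates agreed only in part on this profile. Across the 21 windows Spearman's rho between them was 0.52, the lowest of the 4 arms, beside 0.58 on 2L, 0.80 on 3L and 0.91 on 3R. These are descriptions over neighbouring windows of the same libraries. The X windows held fewer regions on average than those of the arms, and small counts vary more in proportion. How far this lowers rho on the X was not tested. Window 2 held 32 regions in replicate 1 and 13 in replicate 2, and window 17 held 15 and 5, while window 18 held 7 and 16 and window 15 held 14 and 26. In 10 of the 21 windows the covered shares differed by more than 1.5 times, a count that was not made on the arms. A stretch of 723 kb without a region in replicate 2, at chrX:16154568-16877900, held 8 regions of replicate 1. Such a length was not particular to the X, since 3R had a gap of 713 kb in replicate 2.

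No steady trend ran along the X. Spearman's rho between covered share and distance from the telomere end was -0.24 and -0.21 in replicates 1 and 2, -0.32 for their mean and -0.11 for the combined table. Regions of at least 2000 bp alone gave -0.59. By parts of 7 Mb, replicate 1 held 141, 89 and 103 regions from the distal to the proximal part, and replicate 2 held 141, 90 and 127. The middle part was thus the sparsest in both, with 1.99% and 2.06% covered, and also in the combined table, with 17.0% against 21.5% distally and 19.7% proximally. Median lengths and scores differed little between these parts, from 1436 to 1549 bp and from 0.60 to 0.66 in the replicates.

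The densest windows of 100 kb lay in the distal part. By replicate mean the first was chrX:800001-900000, covered to 12.6% and 19.7% in replicates 1 and 2 and to 49.9% in the combined table. The next, chrX:1600001-1700000, was covered to 17.0% and 7.67%. The window chrX:4700001-4800000 was alike in both, with 12.0% and 11.5%, and it had the highest combined coverage of any X window, 58.5%. The window chrX:6000001-6100000 had 10.1% in each replicate, and chrX:5400001-5500000 had 8.27% and 10.2%. Combined coverage reached 50% in 7 X windows, or 3.33%, and in 16.0% to 28.8% of the windows of the reference arms.

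H1 regions of the X were slightly shorter than those of the arms. In replicates 1 and 2 and the combined table, the medians on the X were 1467, 1517 and 1481 bp, against 1549, 1590 and 1664 bp on the pooled arms. The ratio was 0.951 ± 0.00518 (SD, n = 2). The shortest X regions measured 1301 bp in the replicates and 1001 bp in the combined table, within 1 bp of those on each arm. The lower quartiles were 1365, 1389 and 1163 bp on the X and 1395, 1411 and 1235 bp on the pooled arms. Regions of at least 2000 bp numbered 30 in replicate 1 and 53 in replicate 2, or 9.01% and 14.8% of the X regions, against 16.9% and 21.3% on the arms. None reached 5000 bp in a replicate, and the longest measured 3752 and 4174 bp.

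The density of the X relative to the arms fell with each class of length. It was 0.567 and 0.493 for regions under 1500 bp in replicates 1 and 2, 0.393 and 0.413 from 1500 bp, 0.262 and 0.309 from 2000 bp, and 0.104 and 0.226 from 3000 bp to under 5000 bp. The last class rests on 2 and 7 X regions. The combined table declined likewise, from 0.851 under 1500 bp to 0.148 at 5000 bp or more, where the X had 25 regions and the arms 572.

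The scores went the other way. The median score of X regions was 0.62 and 0.65 in replicates 1 and 2 and 0.44 in the combined table. On each reference arm it was lower, between 0.52 and 0.53 in replicate 1, between 0.56 and 0.57 in replicate 2 and at 0.38 in the combined table. The X median exceeded that of the pooled arms by 0.089 ± 0.0023 (SD, n = 2). The lowest score on the X was also higher, 0.37 in each replicate, where the arms began between 0.29 and 0.34. The X had fewer regions than any arm, and a minimum tends to be higher in a smaller set. Scores were higher on the X in every length class that held X regions, by 0.088 to 0.165 in replicate 1, by 0.091 to 0.105 in replicate 2, and by 0.041 to 0.070 for the combined regions.

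When all regions of the 4 arms in a list were ranked by score and divided into 5 classes of equal size, the X held few of the low ones and many of the high ones. Its density relative to the reference arms in the lowest class was 0.103 and 0.107 in replicates 1 and 2, and 0.117 in the combined table. In the highest class it was 1.76, 1.53 and 2.98. This top class held 197 of the 333 X regions in replicate 1, 203 of 358 in replicate 2 and 1272 of the 2325 combined ones. In each of the other classes the X was sparser than the arms, with ratios up to 0.434 in the replicates and 0.823 in the combined table. The highest-scoring X regions were not long, with median lengths of 1509, 1576 and 1445 bp, against 1765, 1995 and 2361 bp for those of the arms.

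**Figure D4:**
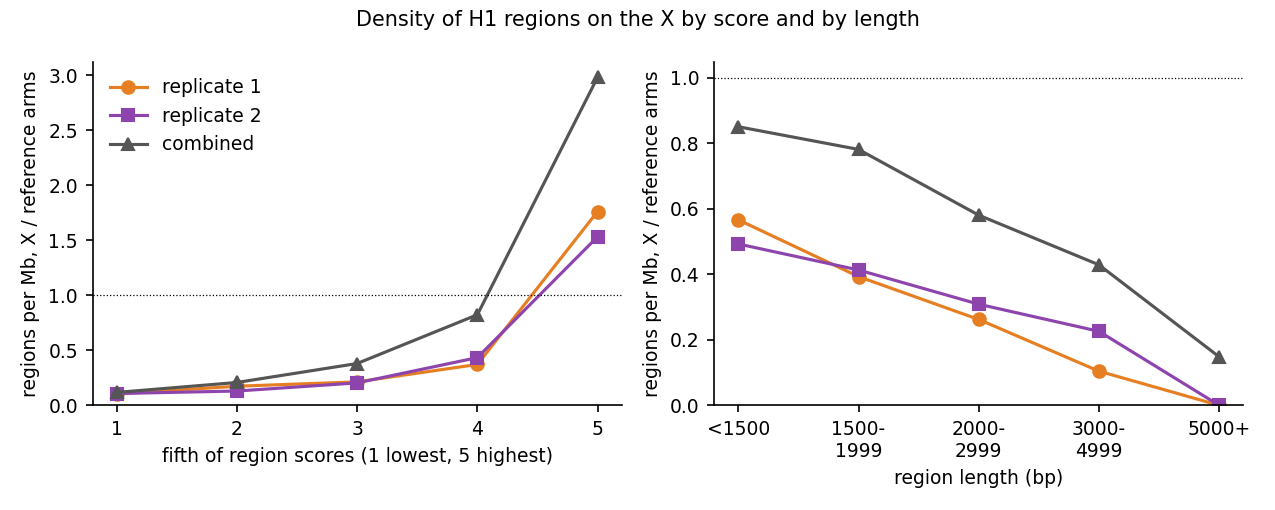
Regions per Mb on the X divided by that on the reference arms (vertical axis), for 5 equal classes of region score within each list (left, class 1 lowest) and for classes of region length in bp (right), in replicate 1 (circles), replicate 2 (squares) and the combined table (triangles). The dotted line marks equal density: the ratio passes it only in the highest class of scores, at 1.76, 1.53 and 2.98, and declines with length in each list.

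Few of the X regions were found in both replicates. Among the 333 X regions of replicate 1, 51 shared at least 1 bp with one of replicate 2, which is 15.3% (95% Wilson interval 11.8 to 19.6%), where 31.5% of the whole list did. Of the 358 of replicate 2, 50 overlapped replicate 1, or 14.0% (10.8 to 17.9%), where 25.3% of the whole list did. The intervals cover the counting of regions only. The shares on the reference arms were 29.4% and 26.0% on 2L, 30.0% and 25.6% on 3L, and 37.0% and 31.8% on 3R, so the X was the lowest in both directions. A sparser list is met less often, and the other replicate covered 2.80% and 2.49% of the X but at least 4.89% of each arm.

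Set against the product of the covered shares, but not by every measure, the X was no poorer in shared sequence than the arms. The replicates shared 48.4 kb of the X, or 0.231% of the stretch, which is 3.31 times the product of their covered shares. This multiple was 2.94 on 2L, 3.28 on 3L and 2.75 on 3R, and it can reach higher values where coverage is low. As a share of the sequence covered in either replicate, the shared sequence was 4.56% on the X. On 2L, 3L and 3R that share was 9.89%, 9.62% and 12.4%, and it is not scaled for density. The distance from a region of replicate 1 to the nearest of replicate 2, for regions without overlap, had a median of 11.5 kb on the X, and 11.0 kb the other way round. On the arms it was between 4.35 and 6.30 kb. These distances are not scaled for density: divided by the mean gap of the list searched, they were 0.205 and 0.182 on the X and 0.192 to 0.234 on the arms. When regions scoring below their list's median were left out, the shares moved closer together, with 15.0% and 13.6% on the X, 14.7% and 13.3% on 3L, 18.1% and 16.6% on 2L, and 25.8% and 24.0% on 3R. Among regions of at least 2000 bp, of which the X had 30 and 53, the shares on the X were 3.33% and 1.89%. Their mean was 2.61%, and the means on the arms were 13.7% to 16.9%. These X shares rest on very few overlapping regions and are not scaled for density.

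**Figure D5:**
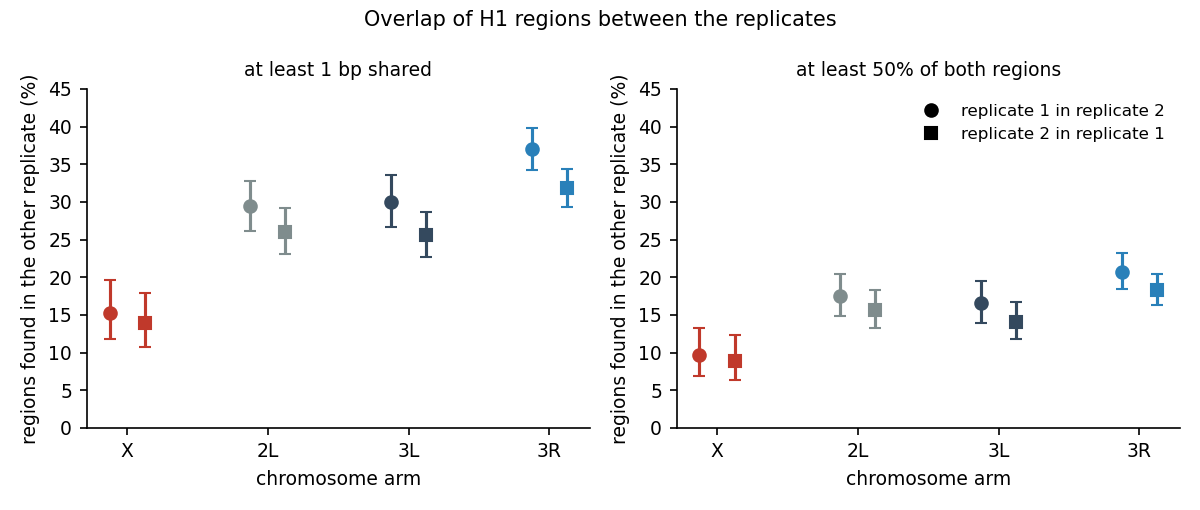
Share of the regions of one replicate that overlap a region of the other (vertical axis, %) on the X and on 2L, 3L and 3R, with 95% Wilson intervals for counting as bars, for an overlap of at least 1 bp (left) and of at least 50% of both regions (right). The X is lowest in both panels, with 15.3% and 14.0% at 1 bp.

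The combined table overlapped nearly all regions of the replicates on the X. By at least 1 bp it met 325 of the 333 of replicate 1 and 341 of the 358 of replicate 2, or 97.6% and 95.3%. On the reference arms these shares were 98.2% to 99.1%. With an overlap of at least 50% of both regions it met 232 and 264 of them, or 69.7% and 73.7%, against 50.4% to 60.2% on the arms. In the other direction, 61 of the 2325 combined X regions overlapped both replicates, which is 2.62% (95% Wilson interval 2.05 to 3.36%), against 6.71% over the whole table and 6.33% to 9.74% on the reference arms. With regions less than 1000 bp apart joined in each list, these shares were 5.25% on the X and 10.9% to 16.7% on the arms. A further 259 overlapped replicate 1 alone and 279 replicate 2 alone, or 11.1% and 12.0%, against 12.6% and 15.7% on the pooled arms. The other 1726, or 74.2%, overlapped neither, against 60.7% to 67.0% on the arms. This table belongs to the same series and its shortest regions measure 1001 bp where those of the replicates measure 1301 bp, and its counts are not independent of theirs.

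The combined regions found in both replicates were longer and higher in score than the rest of the X. The 61 had a median length of 3499 bp and a median score of 0.49, beside 1317 bp and 0.44 for the 1726 found in neither. On the pooled arms the same classes had 4127 and 1369 bp, with median scores of 0.43 and 0.37. A longer region is more likely to meet regions of both replicates, so the difference in length is in part built into these classes. Across the 61, the highest overlapping score in replicate 1 was hardly related to that in replicate 2, with a Spearman's rho of 0.15, a description over regions of the same libraries. The relation was weak on the arms as well, with 0.31 on 2L, 0.20 on 3L and 0.26 on 3R.

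The 5 of these 61 with the highest combined score were spread over the X. The first, at chrX:7313332-7316306, had a score of 0.58 over 2975 bp, of which replicate 1 covered 78.0% and replicate 2 58.6%. The next, at chrX:20753946-20758460, scored 0.57, with 33.6% and 34.7% covered. The regions chrX:771938-774944 and chrX:9836074-9839568 both scored 0.56, and the replicates covered 66.4% and 68.8% of the former and 60.9% and 49.5% of the latter. The last, chrX:13407372-13410096, scored 0.55 and was followed in replicate 2 by a gap of 564 kb.

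The longest of the shared regions reached a few kb. The first, at chrX:5346090-5354508, measured 8419 bp with a score of 0.48, covered to 42.5% by 2 regions of replicate 1 and to 16.5% by 1 of replicate 2. The next, at chrX:5397278-5405194, lay less than 50 kb away and measured 7917 bp, with 43.7% and 26.4% covered. Those at chrX:18345618-18353100 and chrX:19967774-19975148, measured 7483 and 7375 bp, with 21.7% and 29.8%, and 22.0% and 19.6%, covered. The 4 that began at 18126316, 20419304, 11930816 and 7688042 measured from 5771 to 6489 bp. The last of the 10, at chrX:1641026-1646518 and chrX:1651858-1657096, lay close together in one of the densest windows of the X and measured 5493 and 5239 bp. Neither replicate covered more than 48.5% of any of the 10.

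The combined X regions with scores of at least 0.7 were short and overlapped no region of a replicate. At scores of at least 0.5, a limit chosen like that of 0.7 after the values were seen, the X had 290 combined regions, or 13.8 per Mb, against 2.08 to 4.54 per Mb on the arms. Of these 290, 94 overlapped a region of either replicate, or 32.4%, where 25.8% of all 2325 did. At 0.7 or more the X had 12 regions with a median length of 1133 bp, none of which overlapped a replicate. The arms were alike in this: 2L, 3L and 3R had 11, 9 and 2 such regions, with median lengths of 1149, 1037 and 1051 bp, and 1 of them, on 2L, overlapped a replicate. The highest, at chrX:12393444-12394444, had a score of 3.10 over 1001 bp, the shortest length in the table. In the replicates the highest X scores were 0.85, at chrX:1621690-1623339 in replicate 1, and 1.02, at chrX:18087764-18089065 in replicate 2, and neither overlapped the other replicate. These 3 regions were chosen after their values were seen.

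The limit of 21000000 fell between regions of each list. The last regions inside were chrX:20756351-20757868 with a score of 0.71 in replicate 1, chrX:20978040-20979414 with 0.55 in replicate 2 and chrX:20983356-20985516 with 0.45 in the combined table. The first beyond it began at 21007489, 21013680 and 21003366, with scores of 0.47, 0.76 and 0.44. The 1.42 Mb beyond the limit held 29, 24 and 184 regions, or 20.4, 16.9 and 129 per Mb, and they covered 3.22%, 2.75% and 20.4% of it, in the same order of lists. The last window of 1 Mb inside held 20, 35 and 164 regions, which covered 3.23%, 5.89% and 28.4%.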

How the data were processed

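H1 ChIP-seq regions of 2 replicates and of 1 combined table were used. Per the file headers, positions are on FlyBase Release 5. Each deposited region has a start, an end and a score computed by the authors, with no scale given in the headers. The submitters' processing notes name Bowtie 0.12.7, without its role. How regions were called, at which threshold and depth, whether the input entered, and how the combined table was made is not given in the sources used here. Any stricter threshold would remove regions, so counts were compared between arms within a list.

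Regions lying wholly in a stretch were counted, gaps were measured between neighbours, windows were counted by region midpoint and covered by base, and overlap meant at least 1 bp. Covered shares were not corrected for copy number of the X or for repeats. Alternatives were scores at or above the list median, regions of at least 2000 bp, joining below 1000 bp, whole arms, 50% overlap, other window sizes, the combined table and leaving out each replicate. Named regions are, among combined X regions found in both replicates, the 5 highest in score and the 10 longest, with the 5 longest gaps, the 5 densest 100 kb windows and the 3 largest groups; other named items were chosen after their values were seen. The arms, lists and measures were chosen with earlier results of these data known. Gene annotation and sequence were not used, because the gene table at hand is of Release 6. Functions were tested on simulated data. The tools were matplotlib 3.10.9, pandas 2.3.3, numpy 2.4.6 and scipy 1.17.1 under Python 3.11.15.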

Additional observations from a re-analysis of the deposited data

How the results depend on the processing

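Of 48 values from 9 results under the alternatives that keep both replicates, 17 moved by no more than the spread between replicates, or the Wilson interval for the combined share, and 31 moved by more. Leaving out 1 of 2 replicates moves a mean by less than their SD whatever the data, so those values say nothing of stability. None of the values changed sides of equality or sign. With scores at or above the list median the X relative to the arms was 0.678 in covered share, 0.789 in density, 0.863 in median length and 1.45 in median gap, and its median score was higher by 0.057. With regions of at least 2000 bp these were 0.245, 0.264, 0.942, 5.90 and 0.099, the variance-to-mean ratio was 1.45, rho with position -0.59, and the overlap shares 2.61% and 0.369%. Joining regions gave 0.457 in density, 0.935 in length, 2.35 in gap, a variance-to-mean ratio of 1.88 and 5.25% of combined X groups in both replicates. Whole arms gave a gap ratio of 2.59. The combined table gave 0.569, 0.70, 0.890 and 1.67 for covered share, density, length and gap, a variance-to-mean ratio of 4.31, rho of -0.11 and a score difference of 0.061. Windows of 50 kb gave a variance-to-mean ratio of 1.72, and 42 windows of 500 kb a rho of -0.21. An overlap of 50% of both regions left 9.27% of replicate regions and 0.774% of combined regions. Leaving out each replicate gave rho from -0.24 to -0.21. The cause of these moves was not tested, beyond the fewer regions that enter a stricter set. No paired analysis was possible because the results come from no test. Each X value was set against the arms of the same list, so every ratio is within a list. Without the read depths, numbers of regions cannot be set against each other between lists.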
